A study of Drosophila melanogaster with 16 samples.

Results

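CG1774 and CG1635 are a pair of neighbouring genes of Drosophila melanogaster that encode proteins of the acyl-CoA thioesterase type. They were followed across whole larvae that differed in diet and in RNAi line, and they are 2 of the 9982 genes with values. CG1774 was chosen by its measured rise on a high sugar diet, so its values on the diets are given here as a description without a test. CG1635 was added as its paralog, without regard to a value of its own. Acyl-CoA thioesterases cleave an activated fatty acid, acyl-CoA, into the free fatty acid and coenzyme A, and so work against the acyl-CoA synthetases that activate fatty acids for storage, membranes or oxidation. CG1774 and CG1635 resemble ACOT9, which in mammals is a mitochondrial enzyme. What either fly protein does in the larva is not established by the sources used here.

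The study asked which sugar-regulated genes depend on Grain, a GATA transcription factor encoded by grn. RNA-seq was run on 16 libraries of 20 whole larvae each, 4 libraries per group. In 8 libraries the ubiquitous driver Tub-GAL4 was combined with a UAS line labelled grn RNAi, and in the other 8 with a TRiP control line that makes a luciferase hairpin, so that anything else in which the lines differ cannot be told apart from the RNAi. Larvae were at the second instar by the study's methods, while a field of the labels gives the third. They stayed on a low sugar diet (LSD, 10% yeast) or were moved for 8 h to a high sugar diet (HSD, 10% yeast and 15% sugar). The groups were therefore grn RNAi on HSD, control on HSD, grn RNAi on LSD and control on LSD. Each library is a pool of larvae, and p-values measure the spread between these pools. Levels are given as normalized CPM, the authors' measure of reads scaled for the size of each library, and the libraries held 24038848 to 32644817 reads.

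The libraries labelled grn RNAi held more reads of grn than the control libraries. On HSD the level was 219 ± 10.2 normalized CPM in libraries labelled grn RNAi and 20.5 ± 2.66 in control libraries, and on LSD it was 239 ± 14.7 in libraries labelled grn RNAi and 18.1 ± 2.63 in control libraries (SD, n = 4 each). The log2 fold change was 3.70 on LSD (adjusted p = 3.53e-12, limma) and 3.39 on HSD (adjusted p = 1.19e-11, limma). The read level therefore does not show a knockdown, and the directions below hold for libraries labelled grn RNAi against control libraries. In a separate measurement of expression, the study reports lower grn with its RNAi lines than in controls. Why the reads here went the other way was not tested. The scaled totals also differed between the lines, at 929735 to 963521 in libraries labelled grn RNAi and 1025511 to 1131938 in control libraries.

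Both genes lie on the plus strand of chromosome arm 3R (Release 6 of the fly genome). CG1774 (FBgn0039856) spans 31592803 to 31594719. It has 2 annotated transcripts, each of 2 exons and 1 intron, which share 472 codons and a 3′ untranslated region of 124 bases and differ in the 5′ untranslated region, 317 or 188 bases. CG1635 (FBgn0039854) spans 31588673 to 31590392, with 4 exons, 3 introns, 448 codons, and untranslated regions of 80 bases at the 5′ end and 121 bases at the 3′ end. The gap of 2410 bases between the 2 genes holds CG1638, not analysed here, whose start is 188 bases past the end of CG1635 and whose end is 486 bases before CG1774. RpL6, which encodes a protein of the large ribosomal subunit, is read towards CG1774 from the opposite strand and ends 72 bases from it. rod, whose protein acts in the spindle checkpoint, ends 428 bases before CG1635. An antisense RNA gene, CR45190 (FBgn0266700, 31588279 to 31590411 on the minus strand), covers all of CG1635, and its 3 exons overlap 83.3% of the exon bases of CG1635. The authors counted reads by strand.

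CG1774 had 612, 553, 532 and 572 normalized CPM in the libraries labelled grn RNAi on HSD, against 516, 561, 584 and 489 in the control libraries on HSD. On LSD it had 27.3, 26.2, 30.8 and 28.6 normalized CPM in the libraries labelled grn RNAi, against 37.0, 37.5, 37.6 and 33.7 in the control libraries. The 8 HSD libraries lay far above the 8 LSD libraries, and no LSD library came near an HSD library. These levels rested on 13164 to 19603 reads of CG1774 per library on HSD and on 765 to 950 reads on LSD.

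The means for CG1774 were 567 ± 33.9 normalized CPM in libraries labelled grn RNAi on HSD, 538 ± 42.9 in control libraries on HSD, 28.2 ± 2.00 in libraries labelled grn RNAi on LSD and 36.5 ± 1.87 in control libraries on LSD (SD, n = 4 each). In libraries labelled grn RNAi the HSD mean was 20.1 times the LSD mean, a log2 fold change of 4.31 (SE 0.07). In control libraries the HSD mean was 14.7 times the LSD mean, a log2 fold change of 3.86 (SE 0.07). CG1774 ranked 2 of 9950 genes by the log2 fold change on HSD in both lines. Per kilobase of exon, its mean level was 305 normalized CPM in libraries labelled grn RNAi on HSD (place 300 of the 9812 genes with an annotated length) and 15.2 in those on LSD (place 3711). In control libraries it was 289 per kilobase on HSD (place 380) and 19.6 on LSD (place 3291).

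CG1635 had 50.9, 50.8, 48.8 and 49.1 normalized CPM in the libraries labelled grn RNAi on HSD, against 57.3, 57.7, 49.7 and 50.0 in the control libraries on HSD. On LSD it had 44.1, 43.6, 43.4 and 40.4 normalized CPM in the libraries labelled grn RNAi, against 52.2, 51.0, 45.4 and 47.4 in the control libraries. All 16 libraries thus lay within a narrow band, and the 4 libraries labelled grn RNAi on LSD were the lowest. The means were 49.9 ± 1.10 in libraries labelled grn RNAi on HSD, 53.7 ± 4.40 in control libraries on HSD, 42.9 ± 1.68 in libraries labelled grn RNAi on LSD and 49.0 ± 3.18 in control libraries on LSD (SD, n = 4 each).

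The log2 fold change of CG1635 on HSD was 0.22 (SE 0.06) in libraries labelled grn RNAi, where the diets did not overlap, and 0.13 (SE 0.06) in control libraries, where they did. By this change it took place 2042 of 9950 genes in libraries labelled grn RNAi and place 3346 in control libraries. Its level per kilobase of exon was 32.2 and 34.7 normalized CPM on HSD in libraries labelled grn RNAi and control libraries, and 27.7 and 31.6 on LSD. The order of its group means was control HSD, grn RNAi HSD, control LSD, grn RNAi LSD, and only the last of these steps separated groups whose libraries did not overlap. For CG1774 the order was grn RNAi HSD, control HSD, control LSD, grn RNAi LSD, and only the first step joined groups that overlapped.

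**Figure D1:**
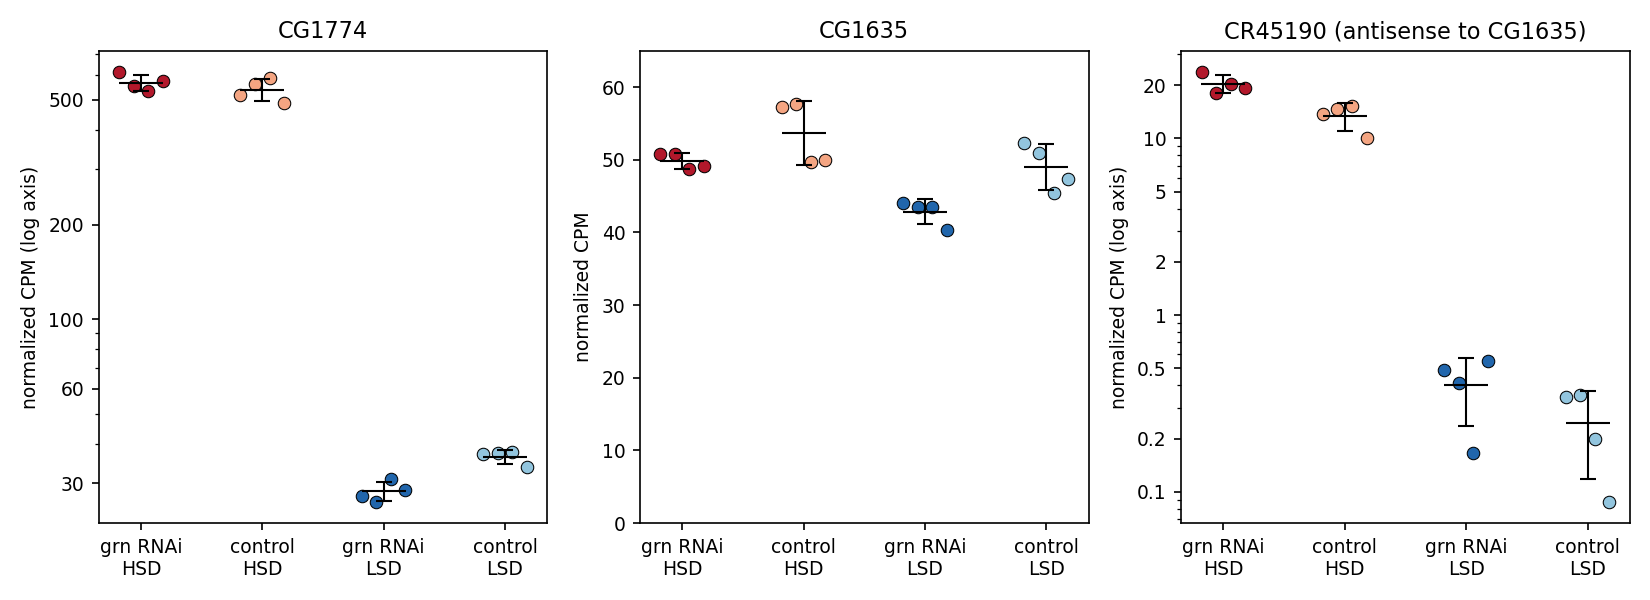
Normalized CPM in each library for CG1774 (log axis), CG1635 (linear axis from 0) and the antisense RNA CR45190 (log axis), by group, for libraries labelled grn RNAi and control libraries on HSD and LSD. Points are libraries in replicate order, and bars show the mean and SD of 4 libraries. CG1774 lies at 489 to 612 on HSD and 26.2 to 37.6 on LSD, CG1635 stays between 40.4 and 57.7, and CR45190 lies at 9.99 to 23.6 on HSD and 0.0880 to 0.551 on LSD.

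Whether the RNAi line mattered for the 2 genes was asked on each diet. On LSD the level of each was lower where the label was grn RNAi. CG1774 was at 0.774 of the control mean, with a log2 fold change of -0.36 (SE 0.07, 95% interval -0.51 to -0.22, adjusted p = 0.000347, limma), and all 4 libraries were below all 4 control libraries. CG1635 was at 0.875 of the control mean, with a log2 fold change of -0.19 (SE 0.06, 95% interval -0.31 to -0.06, adjusted p = 0.0139, limma), again with no overlap. This comparison called 54.2% of all genes tested (27.1% were lower and 27.1% higher). By size of the change CG1774 stood at place 3037 and CG1635 at place 5633 of 9950. The control LSD libraries were part of the rise by which CG1774 was chosen. The test of CG1774 on LSD is therefore not fully independent of that choice.

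An exact permutation test, two-sided and over 4 libraries a line, gave p = 0.0286 for each gene on LSD, the smallest p that it allows, and 0.0572 after adjustment over the 4 tests of the 2 genes on the 2 diets. The lower level of CG1635 depended on how libraries were scaled. With quantile normalization its log2 fold change on LSD was -0.072 (adjusted p = 0.31, limma) and with plain CPM of all reads it was 0.013 (adjusted p = 0.841, limma), while CG1774 passed under each scaling tried, at -0.28 with quantile normalization and -0.16 with plain CPM of all reads (adjusted p = 0.0428, limma).

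On HSD neither gene passed the test. The log2 fold change of CG1774 was 0.08 (SE 0.07, 95% interval -0.06 to 0.22, adjusted p = 0.366, limma; exact permutation p = 0.343), and the libraries of the 2 lines overlapped. That of CG1635 was -0.10 (SE 0.06, 95% interval -0.23 to 0.02, adjusted p = 0.188, limma; exact permutation p = 0.229), also with overlap. Of all genes, 39.1% passed in this comparison. For CG1774 this too turned on the scaling, at 0.32 with quantile normalization (adjusted p = 0.00103, limma) and 0.22 with plain CPM of all reads (adjusted p = 0.0127, limma). The control HSD libraries, like those on LSD, were among those that led to the choice of CG1774.

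The effect of the line on CG1774 differed between the diets. The difference, HSD effect minus LSD effect, was 0.44 on the log2 scale (SE 0.09, 95% interval 0.24 to 0.64, adjusted p = 0.0139, limma), in a comparison that called 5.35% of genes, 3.72% in this direction and 1.63% in the other. It is the same as a rise on HSD that was larger in libraries labelled grn RNAi (log2 4.31) than in control libraries (3.86), and as the rise on HSD led to the choice of the gene, the test is not fully independent of that choice. For CG1635 the difference was 0.09 (SE 0.08, 95% interval -0.09 to 0.27, adjusted p = 0.602, limma).

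The ratio of CG1774 to CG1635 within a library does not change when the library is scaled by 1 factor. Per kilobase of exon it was 10.0, 9.06, 9.08 and 9.70 in libraries labelled grn RNAi on HSD, against 7.50, 8.09, 9.78 and 8.14 in control libraries on HSD. On LSD it was 0.516, 0.5001, 0.591 and 0.589 in libraries labelled grn RNAi, against 0.590, 0.612, 0.690 and 0.592 in control libraries. CG1774 was thus the lower gene of the pair in all 8 LSD libraries and the higher one in all 8 HSD libraries. The log2 ratio moved by 4.11 between the diets in libraries labelled grn RNAi and by 3.75 in control libraries. Between the lines it differed by -0.18 on LSD (two-sided exact permutation p = 0.0571, adjusted over the diets 0.114) and by 0.18 on HSD (exact permutation p = 0.114, adjusted 0.114), and the lines overlapped on both diets.

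**Figure D2:**
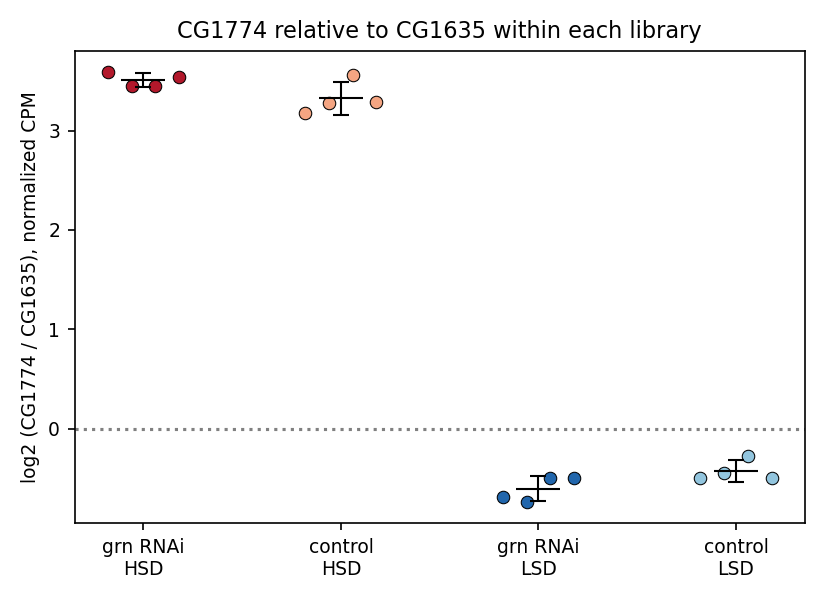
Log2 of the ratio of CG1774 to CG1635 in normalized CPM within each library, for libraries labelled grn RNAi and control libraries on HSD and LSD. Points are libraries, bars the mean and SD of 4 libraries, and the dotted line marks equal levels. Every HSD library lies between 3.17 and 3.59 and every LSD library between -0.73 and -0.27.

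The gene with the highest log2 fold change on HSD in both lines, above CG1774, was CR45190, the RNA antisense to CG1635. It had 23.6, 18.1, 20.4 and 19.3 normalized CPM in libraries labelled grn RNAi on HSD, against 13.8, 14.6, 15.3 and 9.99 in control libraries on HSD. On LSD it was near the limit of counting, with 17, 12, 5 and 17 reads in libraries labelled grn RNAi and 8, 8, 5 and 2 reads in control libraries. Reads from the strand opposite to CG1635 were therefore plentiful on HSD alone, while reads from the CG1635 strand hardly differed between the diets. CR45190 was noticed because it was the only gene placed above CG1774, so its change on HSD is likewise a description. It passed the filter, a normalized CPM above 1, through its HSD libraries alone, as no LSD library exceeded 0.551.

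From pooled reads, the level of CR45190 on HSD was 49.9 times that on LSD in libraries labelled grn RNAi (2351 and 51 reads, 95% exact counting interval 37.8 to 67.3) and 54.4 times in control libraries (1367 and 23 reads, 36.1 to 86.1). These intervals cover counting error only and are no test of the rise, by which CR45190 was noticed. CR45190 reads amounted to 35.7% to 46.5% of CG1635 reads in libraries labelled grn RNAi on HSD and 20.0% to 30.8% in control libraries on HSD, against 0.383% to 1.36% and 0.186% to 0.693% on LSD. The HSD and LSD percentages did not overlap in either line, which describes the same rise and is no further support for it. Set against CG1774, they were 3.27% to 3.87% in libraries labelled grn RNAi on HSD and 2.04% to 2.67% in control libraries on HSD, and 0.539% to 1.93% and 0.261% to 0.942% on LSD.

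On HSD CR45190 was higher in libraries labelled grn RNAi than in control libraries, by a log2 fold change of 0.60 (SE 0.17, 95% interval 0.24 to 0.95, adjusted p = 0.0111, limma), and all 4 libraries were above all 4 control libraries. With a pseudocount of 0.1 in place of 0.5 the value was 0.61 and the adjusted p 0.117. On LSD the log2 fold change was 0.27 (SE 0.17, adjusted p = 0.18, limma), with 5 to 17 reads against 2 to 8, and it passed without replicate 3 of grn RNAi on LSD (0.41, adjusted p = 0.0426, limma) or with quantile normalization (0.53, adjusted p = 0.00636, limma). The difference between the diets was 0.32 (SE 0.24, adjusted p = 0.475, limma). CR45190 was noticed by its rise on HSD and passed the filter through its HSD libraries alone. These tests between the lines are therefore not fully independent of how it was found.

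Apart from CR45190, the measured genes on either side did not share the size of the change on HSD. In control libraries RpL6 was lower on HSD, with a log2 change of -0.29 (SE 0.06, adjusted p = 0.000833, limma), and its change in libraries labelled grn RNAi was -0.12 (SE 0.06, adjusted p = 0.101, limma). CycG, the cyclin gene beyond RpL6, was higher on HSD by 0.24 (SE 0.04, adjusted p = 0.000313, limma) in libraries labelled grn RNAi and by 0.15 (SE 0.04, adjusted p = 0.00842, limma) in control libraries. In control libraries 41.6% of all genes passed on HSD, and in libraries labelled grn RNAi 41.7%. rod changed by 0.25 (SE 0.10, adjusted p = 0.0506, limma) in libraries labelled grn RNAi and by 0.27 (SE 0.10, adjusted p = 0.035, limma) in control libraries. pygo, a Wnt pathway gene beyond rod, changed by 0.04 (adjusted p = 0.499, limma) and 0.01 (adjusted p = 0.878, limma).

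**Figure D3:**
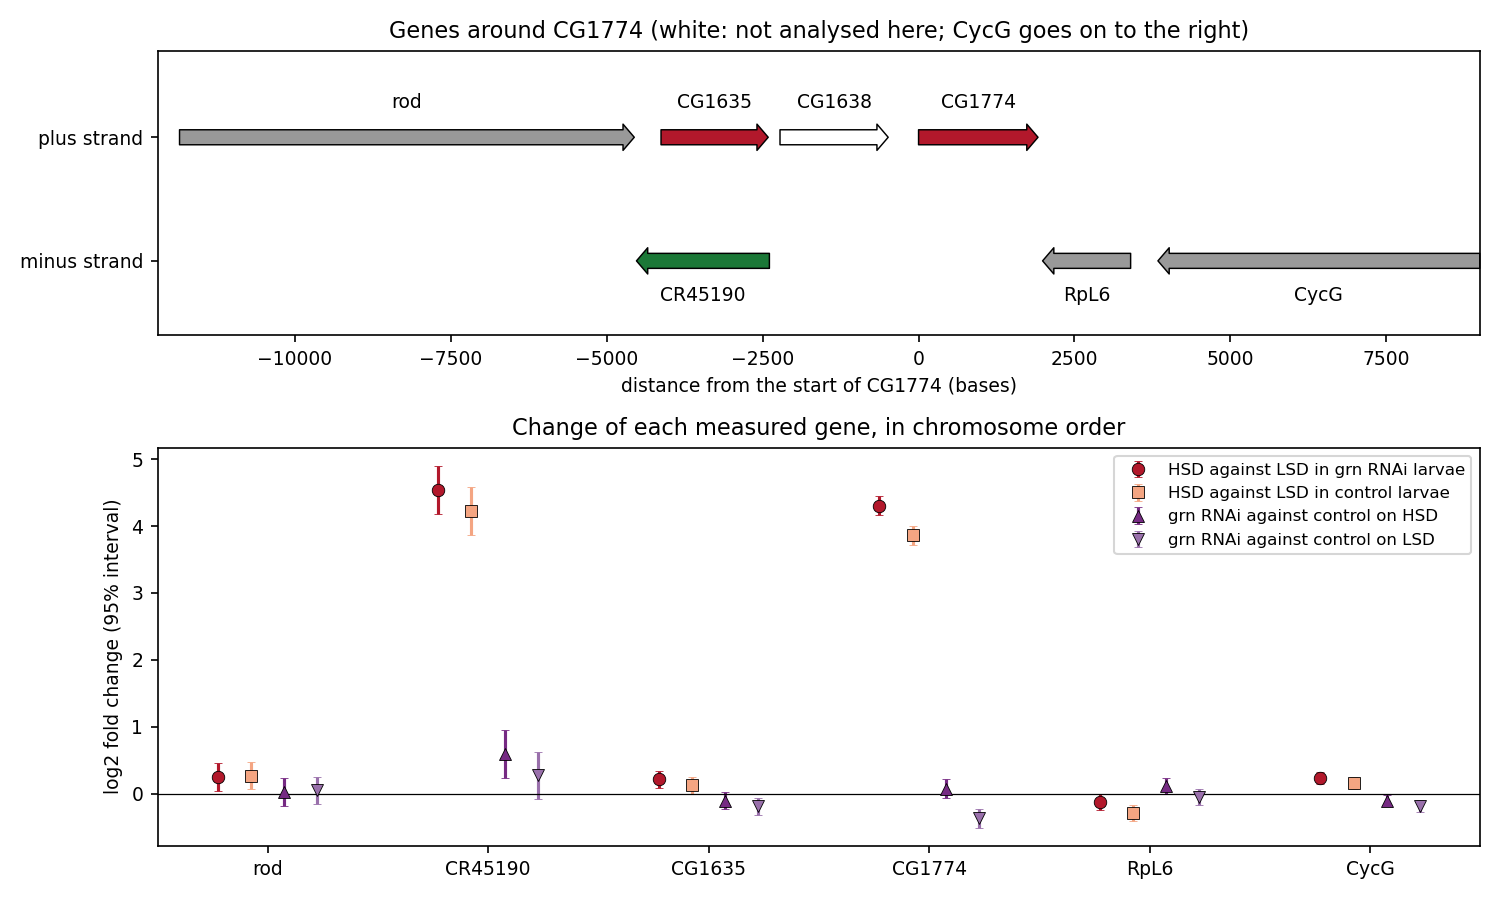
Upper panel, genes around CG1774 by strand, with the distance in bases from its start on the x axis and arrows in the direction of reading (CG1638, in white, was not analysed here). Lower panel, log2 fold change with its 95% interval for each measured gene in chromosome order, for HSD against LSD in each line and for libraries labelled grn RNAi against control libraries on each diet. CG1774 (4.31 and 3.86) and CR45190 (4.54 and 4.22) stand apart on HSD, and CG1635, which lies within the span of CR45190, changed by 0.22 and 0.13.

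Behind CR45190 and CG1774, the next genes by log2 fold change on HSD in libraries labelled grn RNAi were CG12766 (3.92) and Mal-A7 (3.89), a maltase gene, and in control libraries CG5246 (3.05) and CG12766 (2.91). CG5246 had means of 74.3 and 184 normalized CPM on HSD and 6.84 and 22.0 on LSD in libraries labelled grn RNAi and control libraries. CG12766 had means of 37.7 on HSD and 2.02 on LSD in libraries labelled grn RNAi, and of 55.4 on HSD and 6.95 on LSD in control libraries. Unlike CG1774, whose HSD libraries overlapped between the lines, both had lower HSD means in libraries labelled grn RNAi than in control libraries, a difference that is given as values only.

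**Figure D4:**
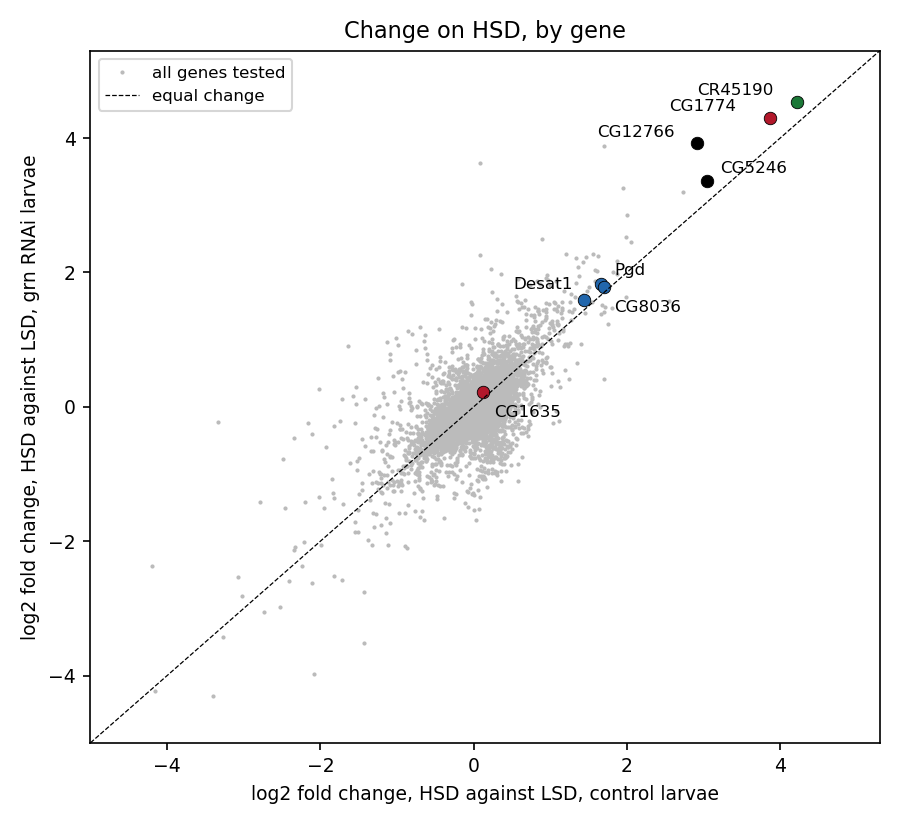
Log2 fold change of each of the 9950 genes tested for HSD against LSD in control libraries (x axis) and in libraries labelled grn RNAi (y axis), each a mean of 4 libraries over a mean of 4. The dashed line marks equal change. CR45190 and CG1774 are the outermost points at the upper right, and CG1635 lies within the bulk of genes.

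The genes whose levels followed CG1774 most closely over the 16 libraries, by Pearson's r of the log2 levels among 7527 genes with a mean of at least 10 normalized CPM in a group, were the following. First came Pgd (r = 0.998), which encodes the 6-phosphogluconate dehydrogenase of the pentose phosphate pathway, CG8036 (0.997), a transketolase gene of that pathway, and Desat1 (0.997), the gene of a fatty acid desaturase. Adk3 (0.996), an adenylate kinase gene, and CG14196 (0.994) came next, and 171 genes had an r above 0.9. The points fall into an HSD and an LSD cluster and share their libraries, and r is given as a description. The likeness was not one of size, as Pgd rose on HSD by a log2 fold change of 1.84 in libraries labelled grn RNAi and 1.67 in control libraries, and Desat1 by 1.60 and 1.44.

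The genes most like CG1635 were others. They were CG1943 (r = 0.942), ERR (0.942), the gene of the oestrogen-related nuclear receptor, GstO2 (0.940), a glutathione S-transferase gene, CG10126 (0.911) and CG11576 (0.910), and 8 genes had an r above 0.9. ERR had means of 19.3 and 22.7 normalized CPM on HSD in libraries labelled grn RNAi and control libraries, and 16.1 and 20.2 on LSD. Like CG1635 it was highest in control libraries on HSD and lowest in libraries labelled grn RNAi on LSD. Between CG1774 and CG1635 r was 0.667 over the 16 libraries.

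The other genes that make, bind, carry or use acyl-CoA were read from lists of pathway genes, 58 of them tested besides CG1774 and CG1635. On LSD 40 were lower in libraries labelled grn RNAi and 5 higher, with a median log2 fold change of -0.27, beside 27.1% lower, 27.1% higher and a median of 0.03 over all genes. On HSD 25 were lower and 5 higher, with a median of -0.12, beside 21.2% lower, 17.9% higher and a median of 0.01 over all genes. These counts moved with the scaling, to 24 lower and 11 higher on LSD with quantile normalization and to 22 lower and 12 higher with plain CPM of all reads. On HSD they moved to 15 lower and 18 higher with quantile normalization and to 19 lower and 17 higher with plain CPM of all reads. These scalings also raised the median of all genes, to 0.13 and 0.22 on LSD and to 0.13 and 0.15 on HSD. The shares of all genes called under them are not given here, so these counts have no background beside them.

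The other genes on the thioesterase list, which may not hold every such gene, were Ppt1, Ppt2, CG16985 and CG16986. Ppt1 and Ppt2 are both of the palmitoyl-protein thioesterase family. None of these 4 was near CG1774 in its change on HSD, where they ranged from -0.43 to 0.19 in control libraries. Ppt2 was lower in libraries labelled grn RNAi on both diets, by a log2 fold change of -0.34 on LSD (SE 0.06, adjusted p = 0.00038, limma) and -0.38 on HSD (SE 0.06, adjusted p = 0.000225, limma). Ppt1 was lower on HSD than on LSD in control libraries, by -0.43 (SE 0.11, adjusted p = 0.00501, limma).

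Of 13 genes of acyl-CoA synthetases and fatty acid transporters, which act upstream of the thioesterases, 9 were lower and 1 higher in libraries labelled grn RNAi on LSD. Of all genes 27.1% were lower and 27.1% higher in this comparison. Acsl, a long-chain acyl-CoA synthetase gene, fell by 0.46 on the log2 scale (adjusted p = 4.53e-07, limma), AcCoAS, the acetyl-CoA synthetase gene, by 0.66 (adjusted p = 2.12e-06, limma), and CG6178 by 0.47 (adjusted p = 2.99e-07, limma). CG4500 was the exception, at 49.7 normalized CPM in libraries labelled grn RNAi on LSD and 14.9 in control libraries (log2 fold change 1.71, adjusted p = 6.89e-07, limma). In control libraries 3 of the 13 rose and 5 fell on HSD, among them Acsl at 0.30 (adjusted p = 5.16e-05, limma) and CG4500 at -1.42 (adjusted p = 8.09e-06, limma), beside 19.3% of all genes higher and 22.3% lower.

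Of 6 genes of acyl-CoA binding proteins, which carry acyl-CoA in the cytosol, 4 were lower in libraries labelled grn RNAi on LSD and none higher. The shares over all genes were 27.1% lower and 27.1% higher. Dbi fell by 0.67 on the log2 scale (adjusted p = 2.82e-06, limma) and CG5804 by 0.42 (adjusted p = 0.000202, limma, but 0.164 with quantile normalization), and Dbi was higher on HSD in control libraries by 0.39 (adjusted p = 0.000612, limma). All 5 genes of the carnitine shuttle, which moves acyl groups into mitochondria, were lower in libraries labelled grn RNAi on both diets, beside 27.1% of all genes lower on LSD and 21.2% on HSD. Of these CPT2, at -0.25 on LSD, did not pass with plain CPM of all reads (-0.048, adjusted p = 0.412, limma). whd, the carnitine palmitoyltransferase 1 gene, was at 50.2 normalized CPM in libraries labelled grn RNAi on HSD and 106 in control libraries on HSD (log2 fold change -1.07, adjusted p = 1.8e-06, limma). On LSD it was at 54.9 in libraries labelled grn RNAi and 107 in control libraries (-0.95, adjusted p = 2.71e-06, limma).

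Of 19 beta-oxidation genes, which break acyl-CoA down, 12 were lower and 3 higher in libraries labelled grn RNAi on LSD, beside 27.1% of all genes each way. CG9527, an acyl-CoA oxidase gene, fell by 1.20 on the log2 scale (adjusted p = 2.06e-08, limma) and Acox57D-p, of the same family, by 0.80 (adjusted p = 6.07e-08, limma). The 3 higher were CG10131 (0.86, adjusted p = 1.8e-06, limma), CG17544 (0.63, adjusted p = 1.51e-07, limma) and CG3902 (0.26, adjusted p = 0.000429, limma). On HSD 15 of the 19 fell in control libraries and none rose, beside 22.3% of all genes lower and 19.3% higher. CG3902, an acyl-CoA dehydrogenase gene, changed most (-1.21, adjusted p = 2.53e-10, limma). This is the opposite direction to CG1774.

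The 9 genes of de novo lipogenesis, which make fatty acids from acetyl-CoA, moved with CG1774 on HSD. In both lines 8 rose and none fell. The median log2 fold change was 1.42 in libraries labelled grn RNAi, beside 18.3% of all genes higher and 23.3% lower. In control libraries it was 0.95, beside 19.3% of all genes higher and 22.3% lower. ATPCL, the ATP citrate lyase gene, had means of 1511 and 1869 normalized CPM on HSD in libraries labelled grn RNAi and control libraries, and 378 and 532 on LSD (log2 fold change on HSD in control libraries 1.81, adjusted p = 5.98e-11, limma). On LSD 8 were lower in libraries labelled grn RNAi, as CG1774 was, and 1 was higher, beside 27.1% of all genes each way. Among the 8 were Men, the malic enzyme gene (-0.65, adjusted p = 6.07e-08, limma), and Baldspot, a fatty acid elongase gene (-0.74, adjusted p = 7.06e-06, limma). FASN3, a fatty acid synthase gene, was the 1 that was higher (1.26, adjusted p = 0.000459, limma), and it was named after its value was seen.

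The difference between the diets in the effect of the line was past the threshold for 8 of the 58 genes in the direction of CG1774 and for 3 in the other, beside 3.72% and 1.63% of all genes. The 8 became 5 without replicate 1 or without replicate 4 of grn RNAi on HSD, and 4 with plain CPM of all reads. Men (0.59, SE 0.07, adjusted p = 0.000248, limma) and fbl (0.37, SE 0.07, adjusted p = 0.00966, limma) were among the 8. fbl encodes pantothenate kinase, the first enzyme of coenzyme A synthesis, and it had means of 317 and 302 normalized CPM on HSD in libraries labelled grn RNAi and control libraries, and 128 and 158 on LSD. Its pattern over the groups was that of CG1774 at a smaller size, with a log2 fold change on HSD of 1.30 in libraries labelled grn RNAi and 0.93 in control libraries. Of the 7 regulators of sugar-responsive genes tested, 5 rose on HSD in each line, beside 18.3% of all genes in libraries labelled grn RNAi and 19.3% in control libraries. Among them was sug, the gene of the zinc finger factor Sugarbabe (1.17 in control libraries, adjusted p = 1.34e-07, limma). On LSD 3 were lower in libraries labelled grn RNAi, beside 27.1% of all genes. cbt, the gene of the repressor Cabut, had the lowest adjusted p (-0.47, adjusted p = 5.51e-05, limma), while Smox (-0.24) did not pass with quantile normalization or with plain CPM of all reads, where it was at -0.042 (adjusted p = 0.517, limma).

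**Figure D5:**
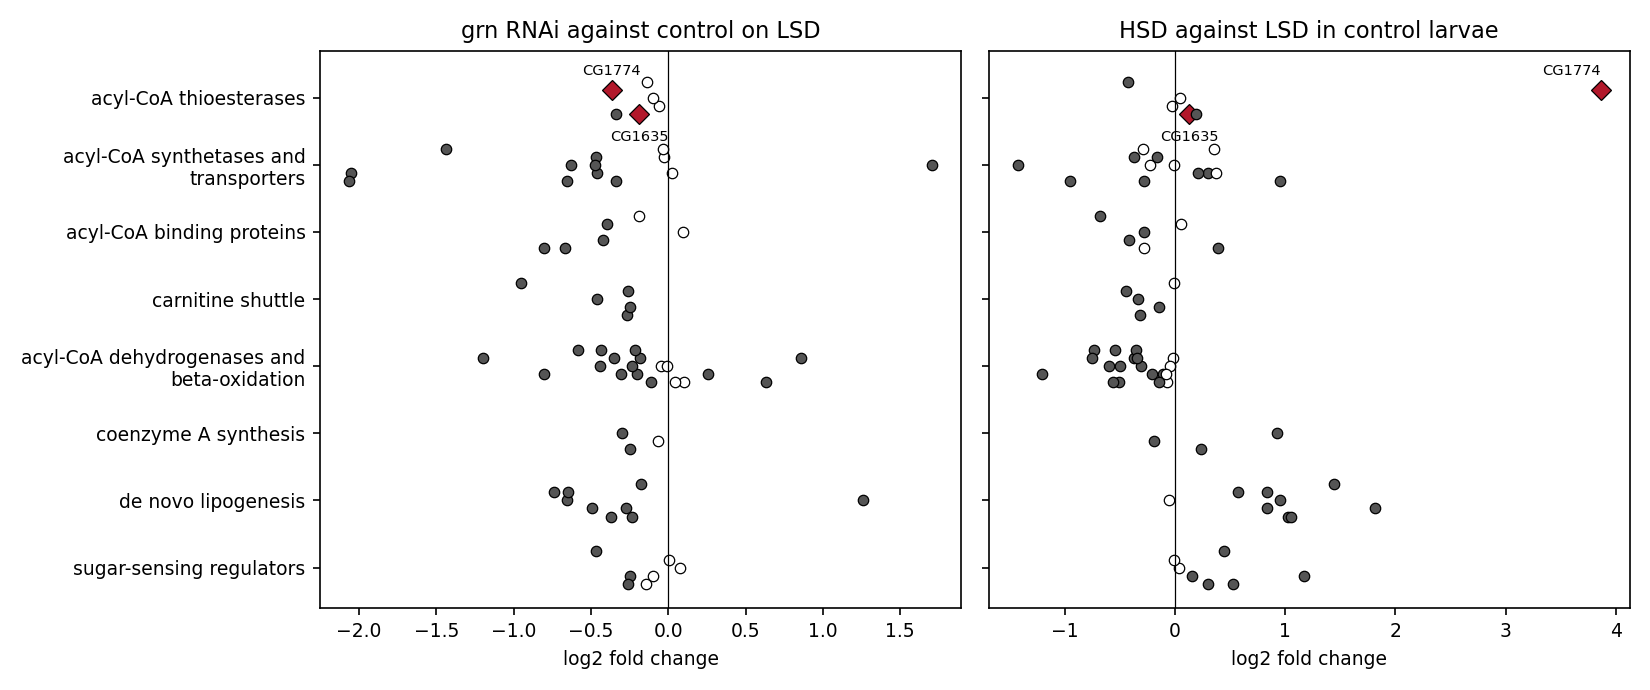
Log2 fold change of the genes of each pathway list (rows) for libraries labelled grn RNAi against control libraries on LSD (left) and for HSD against LSD in control libraries (right). Circles are genes, filled where the adjusted p from limma was under 0.05, and diamonds are CG1774 and CG1635. CG1774 at 3.86 lies to the right of every other gene on HSD, the highest of which is ATPCL at 1.81.

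Markers of some tissues differed between the lines, and their counts are given for the main scaling only. Of 11 midgut markers 10 were lower in libraries labelled grn RNAi on LSD and 8 on HSD, beside 27.1% and 21.2% of all genes. Their summed level was 1691 to 1766 normalized CPM in libraries labelled grn RNAi on LSD and 3363 to 3626 in control libraries on LSD. On HSD it was 2588 to 2827 in libraries labelled grn RNAi and 3761 to 4402 in control libraries. For 7 of the 11 the effect of the line differed between the diets in the direction of CG1774, beside 3.72% of all genes. On LSD, where 27.1% of all genes were lower and 27.1% higher, 9 of 11 muscle markers and 3 of 6 hemocyte markers were lower, and 7 of 9 neuron markers and 2 of 6 Malpighian tubule markers were higher. Of 10 fat body markers 5 had values, and 1 of these was lower on LSD. The Malpighian tubule and fat body counts on LSD were near the shares over all genes. On HSD 1 of 11 muscle markers and 2 of 6 hemocyte markers were lower, beside 21.2% of all genes. Of 9 neuron markers 3 were higher on HSD, and of 6 Malpighian tubule markers 2, beside 17.9% of all genes. The part of these markers in the values of CG1774 and CG1635 was not tested, and in whole larvae fewer cells of a type and less RNA per cell cannot be told apart.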

How the data were processed

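Whole-larva RNA-seq gave 16 libraries, 4 in each of 4 groups. Groups came from the sample titles, since another label field puts LSD samples as wild type and HSD samples as erk7 mutants. The authors built TruSeq stranded mRNA libraries and used Trimmomatic, then TopHat2 2.1.0 against release 6 of the FlyBase genome, then HTSeq (given as 2.7.6) with strand taken into account. They dropped low genes and deposited normalized CPM, used here as a signal. Dividing each deposited signal by the step of its library returned whole reads for 100% of values, within 0.01 read. Fold changes, t, F and p-values that the authors computed with limma stand in the same table and were not used.

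A gene was tested if 3 libraries of some group exceeded a normalized CPM of 1, which kept 9950 of 9982. The calculations used R 4.3.3 with limma 3.58.1, edgeR 4.0.16 and DESeq2 1.42.0. Log2(normalized CPM + 0.5) was fitted with limma (1 mean per group, trend, two-sided), with Benjamini-Hochberg adjustment over all 9950 genes and a threshold of 0.05. A log2 fold change on this scale understates the change of low genes. Exact permutation tests (two-sided, 4 libraries a side) were added. The fit was tested on simulated data. The members, the gene lists and the tests were chosen with earlier results of these data known. Named genes were CG1774, CG1635, grn, their 2 nearest measured genes on each side, the genes ranked next to CG1774 on HSD, the 5 genes most correlated with each, and up to 4 genes per list with the lowest adjusted p on LSD between the lines and as many on HSD in control libraries. CR45190 enters as neighbour and by rank. Lengths and positions are from Ensembl's Release 6 annotation. The alternatives were pseudocounts of 0.1 and 1, no filter or a filter at 5, no trend, 3 other scalings, a fit to 8 libraries alone, a replicate block, edgeR's quasi-likelihood test, DESeq2, limma voom and each library left out.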

Additional observations from a re-analysis of the deposited data

Results flagged for a closer look

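The levels of CG1774 and CG1635 and their log2 ratio were each checked, in every group of 4 libraries, for a library far from the other 3. Of these 12 checks 2 found one. Chance gives about 1 in 20 for a single check, and the 12 are not independent, as the ratio is made from the levels. CG1774 had 33.7 normalized CPM in control LSD replicate 4, below the 37.0 to 37.6 of the other control LSD libraries. CG1635 had 40.4 normalized CPM in the library labelled grn RNAi LSD replicate 4, below the 43.4 to 44.1 of the other libraries of its group. The effect of the line on CG1774 differed between HSD and LSD by 0.44 on the log2 scale (adjusted p = 0.0139, limma), and with single libraries left out this difference stayed between 0.40 and 0.49 (adjusted p 0.00762 to 0.034, limma). As the rise on HSD led to the choice of CG1774, this test is not fully independent of that choice.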

How the results depend on the processing

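CG1774 was lower in libraries labelled grn RNAi on LSD under all 13 alternatives (-0.37 to -0.16 on the log2 scale, adjusted p 3.63e-06 to 0.0428) and with single libraries left out (-0.41 to -0.33). Its difference between the diets passed under all 12 that apply (0.38 to 0.61). These refits use the same libraries, and the rise on HSD that led to the choice of CG1774 enters each of them. With quantile normalization and with CPM of all recovered reads, the change of CG1774 on HSD passed (0.32, adjusted p = 0.00103, and 0.22, adjusted p = 0.0127, limma). The change of CG1635 on LSD became -0.072 and 0.013, and that on HSD became 0.045 and 0.040 (adjusted p = 0.539 and 0.545, limma). These scalings moved the median of all genes by 0.10 and 0.19 on LSD and by 0.12 and 0.14 on HSD, and relative to that median CG1774 on LSD stood at -0.39 to -0.41 and CG1635 at -0.20 to -0.22. With the same scalings in turn, pathway genes higher on LSD numbered 11 and 12 and lower on LSD 24 and 22, and higher on HSD 18 and 17. DESeq2 gave 8 higher on HSD, and quantile normalization 15 lower on HSD. The shares of all genes called under these settings are not given here. Without single libraries the change of CG1635 on LSD lay between -0.22 and -0.16 (adjusted p 0.00658 to 0.0475, limma), that of CG1774 on HSD between 0.03 and 0.12, that of CG1635 on HSD between -0.14 and -0.07, and the number of pathway genes in the direction of CG1774 in the difference between the diets between 5 and 11 (5 without replicate 1 or replicate 4 of grn RNAi on HSD). With a replicate block CG1774 on LSD was at -0.36 (adjusted p = 0.0009, limma) and CG1635 at -0.19 (0.0032), and no call of the 2 genes changed. Same-numbered libraries deviated together in some pairs and not in others (r -0.51 to 0.80), so these values cannot tell whether the numbers pair them. Depth limits only CR45190 on LSD, with 2 to 17 reads per library.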
